A study of Mus musculus with 6 samples.

Results

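The subject is the response of NFIB knockdown cells to osteogenic medium, that is, day 7 set against day 0 within the shNFIB line. Genes were taken up where at least 1 of the shNFIB libraries held 20 or more counts, which gave 14575 of the 55401 genes of the table, 12162 of them protein-coding. Of these genes, 13049 had 20 or more counts on both days, 955 qualified through day 7 alone and 571 through day 0 alone. C3H10T1/2 cells, derived from mouse embryos, grow as mesenchymal precursors and can be driven towards bone or fat in culture. The question put here is which responses of the control line persist in the knockdown line and which do not.

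The study sequenced RNA from 6 samples, 1 library each. The shControl cells carried a control hairpin RNA, the shNFIB cells a hairpin against Nfib and the shMLL1 cells a hairpin against Kmt2a, the gene of MLL1, and all were C3H10T1/2 derivatives. Day 0 cells were undifferentiated cells grown to confluence. Day 7 cells had spent 7 days in osteogenic medium with dexamethasone at 0.1 µM, β-glycerophosphate at 20 mM and ascorbic acid 2-phosphate at 100 µg/mL, so the effects of the medium and of the days in culture cannot be told apart. The shNFIB line rests on 1 hairpin against the 3′ end of the Nfib transcript, and whether it is a clone or a pool is not given in the sources used here. With 1 library per condition there is no replicate check, and a difference between libraries describes those libraries and not the conditions.

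NFIB belongs to the nuclear factor I family of transcription factors, which bind a TTGGCA-type element in promoters and enhancers. Osteogenic medium acts on such cells through several routes. Dexamethasone activates the glucocorticoid receptor, ascorbate serves the hydroxylases that make stable collagen, and phosphate released from β-glycerophosphate can enter mineral. Commitment to bone passes through DLX5 and RUNX2, which turn on genes of the bone matrix, while the cells leave the cell cycle.

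The promoters of 5 genes that the results turn on are shown first, because they carry elements known from 3 of the gene groups of the results, interferon, G2/M and bone genes. They are RefSeq sequences on GRCm38.p6, 200 bases long and ending at the base before the start of the transcript, written in the direction of transcription. Capitals mark the interferon-stimulated response element (ISRE, GAAANNGAAA) in Isg15 and Ifit1, the cell cycle homology region (CHR, TTTGAA) in Cdc20, and the RUNX element (AACCACA) in Spp1 and Runx2, each searched on both strands. Isg15 lies on the minus strand at chr4:156200819-156201018 with 3 adjoining matches. Ifit1 lies on the plus strand at chr19:34640689-34640888 with 2 matches. Cdc20 (minus strand, chr4:118437344-118437543), Spp1 (plus strand, chr5:104434911-104435110) and Runx2 (minus strand, chr17:44814628-44814827) hold 1 match each.
Isg15: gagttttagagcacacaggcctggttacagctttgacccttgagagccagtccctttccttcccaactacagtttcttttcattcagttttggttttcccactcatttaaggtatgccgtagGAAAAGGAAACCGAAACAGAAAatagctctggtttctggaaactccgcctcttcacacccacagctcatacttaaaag
Ifit1: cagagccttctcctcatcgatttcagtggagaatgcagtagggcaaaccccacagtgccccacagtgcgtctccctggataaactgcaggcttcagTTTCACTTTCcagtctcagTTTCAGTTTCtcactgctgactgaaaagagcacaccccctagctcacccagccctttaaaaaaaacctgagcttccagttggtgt
Cdc20: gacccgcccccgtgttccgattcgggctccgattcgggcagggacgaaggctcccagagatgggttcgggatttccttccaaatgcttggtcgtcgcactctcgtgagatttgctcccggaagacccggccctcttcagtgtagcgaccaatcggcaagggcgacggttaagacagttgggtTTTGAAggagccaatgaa
Spp1: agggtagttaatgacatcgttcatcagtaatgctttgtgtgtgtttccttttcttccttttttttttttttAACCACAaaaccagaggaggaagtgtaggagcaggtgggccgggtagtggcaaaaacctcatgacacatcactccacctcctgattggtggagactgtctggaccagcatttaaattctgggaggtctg
Runx2: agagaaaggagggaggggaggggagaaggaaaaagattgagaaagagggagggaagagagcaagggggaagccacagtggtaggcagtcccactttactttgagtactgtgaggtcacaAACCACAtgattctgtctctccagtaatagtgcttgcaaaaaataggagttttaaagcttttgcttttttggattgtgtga

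The 6 libraries held between 21608680 counts (shMLL1 at day 7) and 34774066 counts (shNFIB at day 0). TMM factors, which scale each library to the bulk of its genes, were between 0.908 and 1.13. The share of counts from mitochondrial genes was 2.31% at day 0 and 4.78% at day 7 in shNFIB, against 2.01% and 7.77% in shControl, and its part in the results was not tested. The mesenchymal genes Vim and Fn1 stood at 5980 and 6823 CPM, the counts scaled to a common library size, in shNFIB at day 0. The defining markers Epcam, Krt18, Adgre1, Tyrobp and Cldn5 of epithelial, myeloid and endothelial cells had 0 counts in every library, but other genes of those lists were measured. Over the 6 libraries the epithelial list summed to 11.45 to 335 CPM, the leukocyte list to 18.03 to 27.5 and the endothelial list to 5.04 to 27.7.

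Nfib itself (ENSMUSG00000008575, chr4:82290173-82705750, minus strand) was measured at 116 CPM at day 0 and 83.5 at day 7 in shControl, at 35.3 and 8.15 in shNFIB and at 65.5 and 72.7 in shMLL1. The shNFIB libraries held the lowest values on both days, with 1115 counts at day 0 and 241 at day 7. Within the shNFIB line the log2 ratio of day 7 over day 0 was −2.11 (95% counting interval −2.32 to −1.91), against −0.48 in shControl and 0.15 in shMLL1. Kmt2a stood at 86.5 and 94 CPM in shNFIB, against 30.9 and 34.8 in shMLL1. Of the other NFI genes, Nfic (log2 ratio −1.43) and Nfix (−1.12) were lower at day 7 in shNFIB and Nfia stood at 0.92. That made 3 of 4 members of the family 2-fold or more lower and 0 higher, where 13.2% of all genes were lower. Nfib, the target of the hairpin, is 1 of the 3. The median was −1.28, against −0.71 in shControl and 0.30 in shMLL1.

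In shNFIB, 2067 of the 14575 genes (14.2%) were 2-fold or more higher at day 7 and 1922 (13.2%) were 2-fold or more lower, while 7018 (48.2%) had a log2 ratio within 0.5 of 0. The median log2 ratio was −0.06. Intervals here are exact Clopper-Pearson intervals at 95% and take in no error beyond counting, because the reads lack molecular identifiers and no further culture was sequenced. The whole interval lay past 2-fold for 1251 of the higher and 1406 of the lower genes. A change of 8-fold or more was seen for 390 genes upwards and 389 downwards. Protein-coding genes were lower (1620) somewhat more often than higher (1377), and the other 2413 genes were higher (690) more often than lower (302).

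The highest ratios among protein-coding genes with 20 or more counts on both days were led by that of Ctla2a, a cathepsin inhibitor, with 8.65 CPM at day 0 and 4268 at day 7 (log2 ratio 8.95, interval 8.78 to 9.12). Reads that match its close relatives or the overlapping Gm49391 as well may be missing from its count. Apod, an apolipoprotein of the lipocalin family, went from 2.98 to 1256 CPM, and Dpep1, a membrane dipeptidase, from 2.5 to 828 CPM. All 3 genes were also higher at day 7 in the other lines, with log2 ratios of 5.26 or more.

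Ifi207 (log2 ratio 8.20), Oas2 (7.67), Aldh1a1 (7.67), Hp (6.69), Mmp3 (6.57) and Iqgap2 (6.18) were also among the 10 highest. Mmp3, the matrix protease stromelysin, had 160 CPM in shNFIB at day 7 against 3.18 in shControl and 12.7 in shMLL1, from values of 0.689 to 1.68 at day 0.

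Among the 10 lowest ratios were those of Col2a1 (log2 ratio −6.69), Col8a1 (−5.50), Plk1 (−5.43), Tnc (−5.18), Serpinb7 (−5.14), E2f8 (−4.99), Pif1 (−4.86), Bub1b (−4.85) and Ercc6l (−4.81). They comprise 2 collagens, the matrix glycoprotein tenascin C, a serpin and 5 genes of DNA replication and mitosis. Each of these genes was also 2-fold or more lower in both other lines.

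Ratios in shNFIB and shControl share no library, so they can be set side by side. In shControl, 3030 of 15069 genes (20.1%) were 2-fold or more higher at day 7 and 2211 (14.7%) lower, referred to as its rises and falls. A shControl rise or fall was called kept where the shNFIB ratio was 2-fold or more in the same direction, reduced where its log2 value was 0.5 or more but short of 2-fold, lost below that and opposite where it was 2-fold or more the other way. Of the 2440 shControl rises that could be classed in shNFIB, 1499 (61.4%) were kept, 559 (22.9%) reduced, 362 (14.8%) lost and 20 (0.82%) opposite. The remaining 590 of the 3030 rises had under 20 counts on both days in shNFIB and enter none of these shares. Of 2075 classed falls, 1274 (61.4%) were kept, 536 (25.8%) reduced, 247 (11.9%) lost and 18 (0.867%) opposite.

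The median ratio of the classed rises was 1.77 in shControl and 1.21 in shNFIB, and that of the falls was −1.49 and −1.27. Because these genes were selected on the shControl ratio, a smaller ratio in another line may partly be a result of the selection, which was not tested. The shMLL1 line, in which 3516 of 15166 genes (23.2%) were higher and 2942 (19.4%) lower, was classed in the same way. There 78.7% of 2687 classed rises and 71% of 2074 classed falls were kept. Their medians were 1.82 and −1.55, where the same genes had 1.79 and −1.49 in shControl. The genes that could be classed differ between the lines. Selected the other way round, 78.9% of the classed shNFIB rises and 71.4% of the classed shNFIB falls were kept in shControl. Responses that shControl and shMLL1 had in common were kept in shNFIB for 1249 of 1850 rises (67.5%) and 972 of 1424 falls (68.3%).

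**Figure D1:**
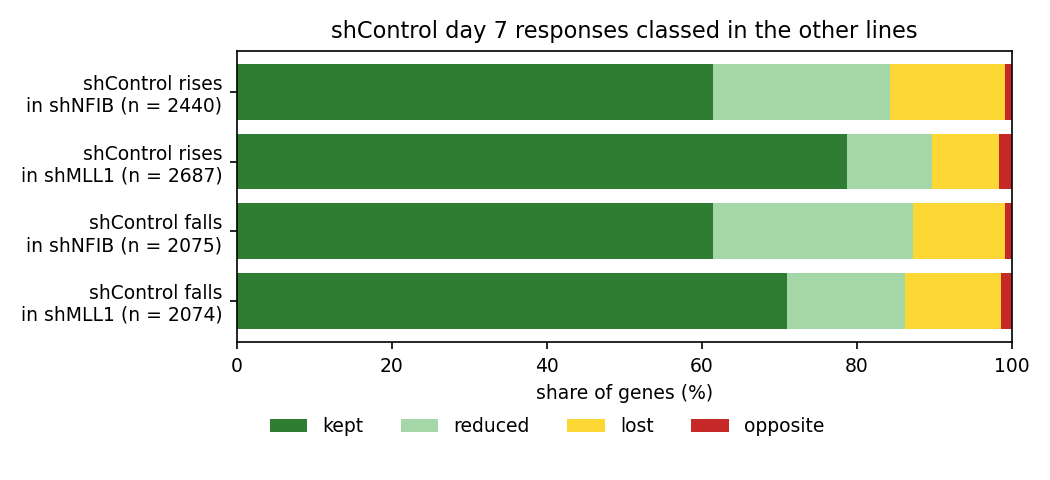
Share of the classed shControl rises and falls (percent, horizontal axis) that were kept, reduced, lost or opposite in shNFIB and in shMLL1. Each line and direction has 1 bar. Genes with under 20 counts on both days of a line are left out of its bars. These were 590 of 3030 rises and 136 of 2211 falls in shNFIB, and 343 and 137 in shMLL1. The kept part covers 61.4% of classed rises and of classed falls in shNFIB, and 78.7% and 71% in shMLL1.

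Lost responses differed in level more at day 7 than at day 0. Of the 362 lost rises, 119 were 2-fold or more lower in shNFIB than in shControl at day 7 and 5 were higher, with a median log2 difference of −0.78. At day 0, 72 of them were already 2-fold or more higher in shNFIB and 7 lower (median 0.38). Of the 247 lost falls, 104 were 2-fold or more higher in shNFIB at day 7 and 4 lower (median 0.89), while at day 0 the counts were 15 and 17 (median −0.08). For the 1499 kept rises the medians were 0.01 at day 0 and −0.30 at day 7. These levels share libraries with the ratios that set the classes and are given as a description.

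**Figure D2:**
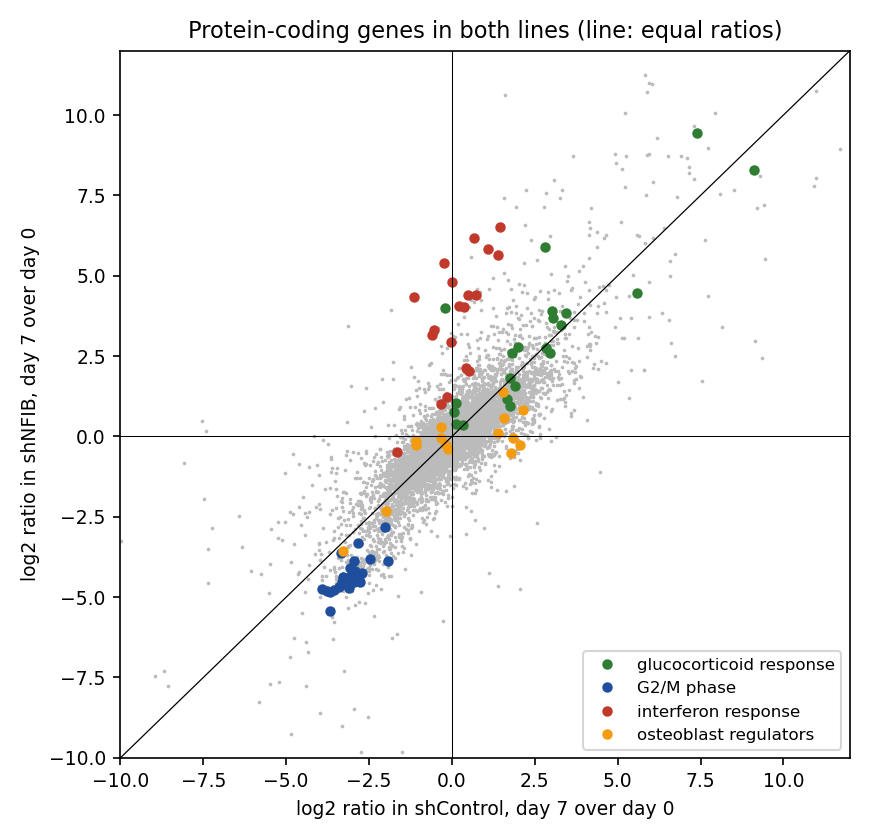
Log2 ratio of day 7 over day 0 in shControl (horizontal axis) and in shNFIB (vertical axis) for 11921 protein-coding genes, each a grey point, with 4 gene lists in colour and a line of equal ratios; 5 points lie outside the axes. Glucocorticoid genes lie high on both axes and G2/M genes low on both, most interferon genes lie high in shNFIB and near 0 in shControl, and 6 of the 7 osteoblast regulators that are 2-fold or more higher in shControl are not so in shNFIB.

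Genes of the cell cycle were lower at day 7 in the knockdown line too. All 29 S phase genes and all 30 G2/M genes were 2-fold or more lower at day 7 in shNFIB, against 13.2% of all genes. The median log2 ratio was −2.86 for S phase and −4.39 for G2/M, compared with −2.23 and −3.08 in shControl and −2.88 and −3.72 in shMLL1. Cdc20, the activator of the anaphase-promoting complex, fell across the lines, from 150 to 5.79 CPM in shNFIB, from 108 to 10.2 in shControl and from 92.4 to 6.56 in shMLL1. Mki67, the proliferation marker, went from 437 to 15.7 CPM in shNFIB (log2 ratio −4.80) and from 253 to 18.5 in shControl. The steeper ratios in shNFIB went with higher levels at day 0, since the summed level of the 30 G2/M genes was 5907 CPM there at day 0 against 3779 in shControl, and 343 against 470 at day 7. In bulk RNA, fewer cycling cells and less RNA per cell cannot be told apart.

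Across the 3 lines, all 59 of these genes fell at an adjusted p under 0.05 by the quasi-likelihood test of edgeR (Benjamini-Hochberg adjusted), a test of day with the line as a block that includes the shNFIB libraries. That test called 2785 of 15741 genes (17.7%) higher and 2677 (17%) lower at day 7. Of the genes past 2-fold in shNFIB that it could test, 1562 of 1996 higher and 1400 of 1865 lower ones were called in the same direction. In the 300-base RefSeq promoters, the CHR of the Cdc20 sequence above was found in 19 of 26 G2/M promoters (73.1%) and in 17.9% of all 32851 promoters. The CCAAT box, whose complement ATTGG was searched as well, was found in 80.8% of G2/M and in 37.4% of all promoters.

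Genes that govern the G1 phase showed smaller ratios. Of 14 members of the list of cyclin-dependent kinase inhibitors and exit genes, 2 were higher (Btg1 and Ccng2), 5 lower and 7 in between, with a median of −0.76. Among all genes in shNFIB 14.2% were higher and 13.2% lower. Cdkn1a, the p21 inhibitor, stood at 404 and 396 CPM in shNFIB, against 208 and 159 in shControl, and so was higher in shNFIB on both days and near level within the line (log2 ratio −0.03). Ccnd1, the D-type cyclin of early G1, fell from 752 to 181 CPM in shNFIB (log2 ratio −2.05), and over the 3 lines its fall had an adjusted p of 0.0043 by the quasi-likelihood test of edgeR.

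Sterol synthesis genes were likewise lower in shNFIB. Of 18 genes, 17 were 2-fold or more lower and 0 were higher, where 13.2% of all genes were lower. The median was −2.66, against −3.10 in shControl and −2.20 in shMLL1. All 18 were called lower by the quasi-likelihood test of day over the lines, which called 17% of all genes tested lower. That test includes the shNFIB libraries. The summed level of the list was 2586 CPM at day 0 and 362 at day 7 in shNFIB, 3339 and 377 in shControl and 1733 and 279 in shMLL1. Insig1, a sterol sensor of the endoplasmic reticulum, was the 1 gene short of 2-fold, at 169 and 95.2 CPM. Of 14 sterol promoters, 12 (85.7%) held a CCAAT box, against 37.4% of all promoters.

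Genes of the ATF4 amino acid response were less far below their day 0 level in shNFIB than in the other lines. Of 18 genes, 11 were 2-fold or more lower in shNFIB, against 16 in shControl and 17 in shMLL1, and the medians were −1.16, −2.09 and −3.24. The shares of all genes that were lower were 13.2%, 14.7% and 19.4% in the same order. Asns, asparagine synthetase, was at 325 and 98.7 CPM in shNFIB, 279 and 29.3 in shControl and 417 and 13.8 in shMLL1. Trib3, a feedback inhibitor of ATF4, went from 82.2 to 35.7 CPM in shNFIB and from 106 to 6.56 in shControl. Slc7a11, the cystine transporter, was at 49.8 and 64.3 CPM in shNFIB, with a log2 ratio of 0.37 against −1.76 and −3.34. For all 3 genes shNFIB held the highest value at day 7, and the difference in response between the lines could not be tested.

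The glycolysis and hypoxia list showed the same order of the lines. Its median was 0.37 in shNFIB, −0.61 in shControl and −1.70 in shMLL1. In shNFIB 8 of 19 genes were 2-fold or more higher and 2 lower, beside 14.2% and 13.2% of all genes. Vegfa, the angiogenic growth factor, was at 62.4 and 334 CPM in shNFIB, 89.8 and 213 in shControl and 182 and 178 in shMLL1. The glucose transporter Slc2a1 had 41.4 and 101 CPM in shNFIB (log2 ratio 1.29), 39.2 and 35.7 in shControl and 81.8 and 19.7 in shMLL1. Ldha, lactate dehydrogenase, was lower at day 7 in each line (log2 ratio −1.09 in shNFIB, −2.00 in shControl and −2.91 in shMLL1).

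**Figure D3:**
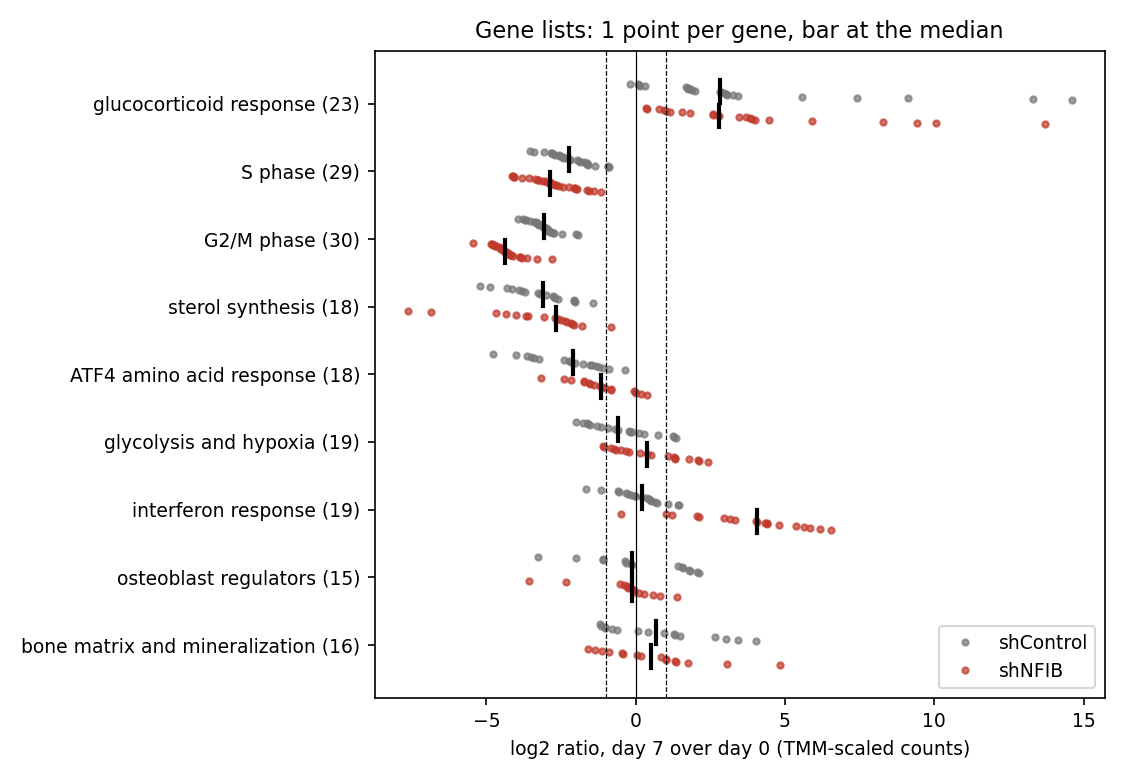
Log2 ratio of day 7 over day 0 (horizontal axis) for the genes of 9 lists in shControl (grey) and shNFIB (red), 1 point per gene, with a black bar at each median and dashed lines at 2-fold; the number of genes is in brackets, and points of genes with 0 counts on a day depend on the prior count. Medians nearly coincide for the glucocorticoid list (2.82 and 2.78) and stand apart for the interferon list (0.22 and 4.06).

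Glucocorticoid response genes, known as targets of drugs such as dexamethasone, were higher at day 7 in shNFIB too. This list, like the others, was chosen with earlier results of these data known, so its counts are a description. Of 23 glucocorticoid response genes, 19 were 2-fold or more higher and 0 lower, beside 14.2% higher among all genes, and the median of 2.78 lay next to the 2.82 of shControl and the 2.54 of shMLL1. Of the 23, 17 were called higher by the quasi-likelihood test over the lines, which called 17.7% of all genes tested higher. Fkbp5, a chaperone that restrains the receptor, rose from 29.6 to 422 CPM in shNFIB, from 25.4 to 273 in shControl and from 18.8 to 414 in shMLL1. Tsc22d3, which encodes the anti-inflammatory protein GILZ, stood at 60.8 and 411 CPM in shNFIB, against 59.5 and 428 in shControl. Sgk1, a kinase of ion transport, rose from 27.3 to 303 CPM in shNFIB and the clock gene Per1 from 25.4 to 75. At day 7 Tsc22d3 and Sgk1 stood near their shControl level, Fkbp5 above it and Per1 somewhat below it.

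Members of the list differed from shControl in both directions. Zbtb16, a zinc finger factor induced by glucocorticoid, had 0 counts at day 0 in each line and 133 at day 7 in shNFIB, against 1296 in shControl and 154 in shMLL1. Set against a floor of 3 counts per library, its log2 ratio in shNFIB was at least 5.57. Hif3a, a hypoxia-inducible factor subunit, likewise had 0 counts at day 0 and 1664 at day 7 in shNFIB (log2 ratio at least 9.21), with 3178 in shControl and 2768 in shMLL1.

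Hsd11b1, the enzyme that regenerates active glucocorticoid inside cells, stood apart through its level at day 0. It had 1.43 CPM at day 0 and 22.7 at day 7 in shNFIB (log2 ratio 3.99, interval 3.56 to 4.46), against 44.3 and 38.4 in shControl and 18.1 and 31.6 in shMLL1. Lcn2, the siderophore-binding lipocalin, was similar, at 1.36 and 81.6 CPM in shNFIB, 15.3 and 108 in shControl and 81.9 and 77.5 in shMLL1. Both genes were low in shNFIB before differentiation and came near the other lines by day 7. A glucocorticoid response element (GNACANNNTGTNC) was found in 2 of 30 promoters of the list and in 0.475% of all promoters.

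Of the 15 osteoblast regulators measured in shNFIB, 1 was 2-fold or more higher, 2 were lower and 12 lay in between, with a median of −0.13. These counts lie near or below the 14.2% higher and 13.2% lower of all genes in that line. In shControl 7 were higher and 4 lower, where 20.1% and 14.7% of all genes were. Of those 7 shControl rises 1 was kept, 2 were reduced and 4 were lost in shNFIB. The other 7 genes of the list, Sp7 among them, had under 20 counts on both shNFIB days.

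Dlx5 (ENSMUSG00000029755, chr6:6877805-6882085), the homeobox factor upstream of Runx2, was at 12.8 CPM at day 0 and 52.5 at day 7 in shControl, at 4.43 and 3.69 in shNFIB and at 4.04 and 15.9 in shMLL1. Its log2 ratio was −0.27 in shNFIB (interval −0.64 to 0.11), 2.04 in shControl and 1.98 in shMLL1. Both knockdown lines thus started low, and shNFIB alone had no higher value at day 7. Over the 3 lines the day effect on Dlx5 had an adjusted p of 0.067 by the quasi-likelihood test of edgeR.

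Runx2 (ENSMUSG00000039153, chr17:44495987-44814797), the master regulator of osteoblasts, was at 32.8 and 117 CPM in shControl, 31.4 and 30.4 in shNFIB, with 32.2 and 35.3 in shMLL1. The lines were level at day 0 and only shControl was higher at day 7. Overlapping genes on the opposite strand (Runx2os1, Runx2os2 and Supt3) leave some doubt about these counts, since the strand setting of the counting is not given in the sources used here. Cbfb, the partner subunit of the RUNX factors, was at 83.2 and 123 CPM in shNFIB against 81.6 and 243 in shControl.

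Fhl2, a cofactor of RUNX2, was the regulator whose rise was kept. It went from 12.5 to 32.2 CPM in shNFIB (log2 ratio 1.37, interval 1.20 to 1.54), from 12.4 to 36.3 in shControl and from 10.5 to 39.7 in shMLL1, with an adjusted p of 0.0023 by the quasi-likelihood test of edgeR over the lines. Twist2 (log2 ratio −0.51 in shNFIB and 1.77 in shControl) and Bmp4 (0.12 and 1.40), a repressor and a ligand, had no 2-fold change in shNFIB. The lower genes were Runx3 (−3.58) and Hey1 (−2.32), a Notch target, both of them also lower in shControl. Runx1 and Atf4 were 2-fold or more lower in shControl (−1.08 each) and not in shNFIB (−0.13 and −0.27).

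Bone matrix genes split. Of 16 measured, 7 were 2-fold or more higher, 3 lower and 6 in between in shNFIB (median 0.51), where 14.2% of all genes were higher and 13.2% lower, against 7, 4 and 5 in shControl (median 0.68), and 4 genes, Alpl, Enpp1, Mgp and Ogn, were higher in both. Spp1 (osteopontin; ENSMUSG00000029304, chr5:104435118-104441050) was at 217 and 1381 CPM in shControl, 217 and 226 in shNFIB and 224 and 304 in shMLL1. Col1a1, the main chain of type I collagen, was at 1044 and 2526 CPM in shControl, 1130 and 1277 in shNFIB and 1106 and 1382 in shMLL1. For Spp1 and Col1a1, the 3 lines were level at day 0 and shControl stood apart at day 7, as for Runx2. Col1a2, the other chain of type I collagen, went the other way. It fell from 4443 to 1948 CPM in shControl, from 6289 to 2081 in shNFIB and from 2702 to 2112 in shMLL1. Sparc was also lower at day 7, with log2 ratios of −1.01 in shControl and −1.35 in shNFIB. After the values were seen, the raw day 0 counts of Runx2, Cbfb, Spp1 and Col1a1 were found within 1.1-fold of each other over the 3 lines. Among genes with 500 or more counts in each day 0 library, that held for 5.21%. It held for 4 of 8 osteoblast regulators and 3 of 11 bone matrix genes of that depth.

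Other matrix genes kept their shControl rise. Mgp, matrix Gla protein, an inhibitor of mineralization, was at 170 and 1415 CPM in shNFIB and 151 and 1623 in shControl. Ogn (osteoglycin) had a log2 ratio of 1.30 in both lines, from 558 to 1376 CPM in shNFIB. Both passed the quasi-likelihood test over the lines, with adjusted p values of 0.00089 and 0.0094 (edgeR, Benjamini-Hochberg).

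Genes of the list that handle phosphate went both ways. Alpl (alkaline phosphatase; ENSMUSG00000028766) had 8 counts at day 0 and 215 at day 7 in shNFIB (log2 ratio 4.82, interval 3.84 to 6.07), 7 and 111 in shControl and 0 and 2 in shMLL1. Phospho1, a phosphatase of matrix vesicles, was at 3.83 and 9.81 CPM in shNFIB (log2 ratio 1.35), and Phex, a peptidase of phosphate balance, at 2.47 and 8.25 (1.74) against 1.66 and 0.82 in shControl. Ank, a pyrophosphate transporter, was lower at day 7 in shNFIB (−1.13), and the phosphate transporters Slc20a1 (−0.91) and Slc20a2 (−0.44) stood within 2-fold. Markers of mature osteoblasts were near absent in every line. Bglap had 2 and 3 counts in shNFIB, 4 and 13 in shControl and 3 and 3 in shMLL1. Sp7 had 1 and 2 counts in shNFIB, 1 and 7 in shControl and 1 and 0 in shMLL1. Ibsp had 0 in every library.

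**Figure D4:**
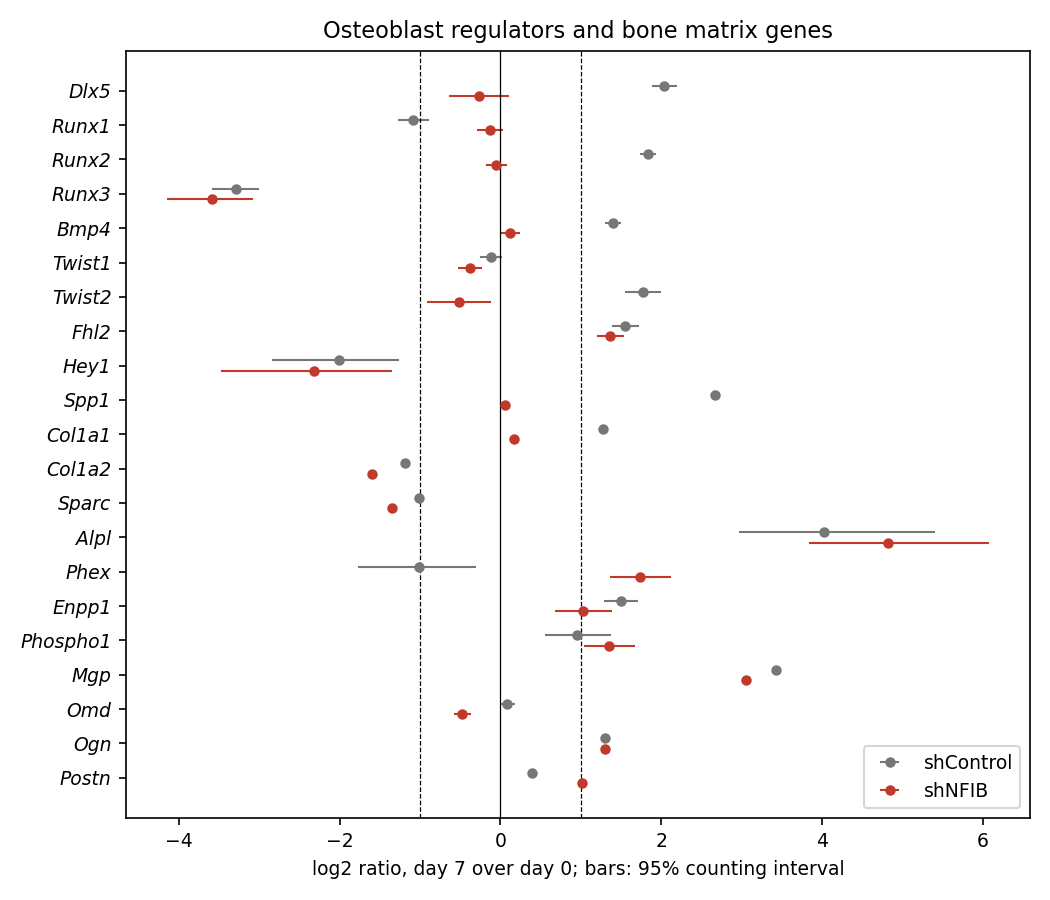
Log2 ratio of day 7 over day 0 (horizontal axis) with its 95% counting interval for 21 osteoblast regulators and bone matrix genes in shControl (grey) and shNFIB (red); dashed lines mark 2-fold. Dlx5, Runx2, Spp1, Bmp4 and Twist2 lie above 2-fold in shControl and near or below 0 in shNFIB, whereas Fhl2, Alpl, Mgp and Ogn lie above 2-fold in both.

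The RUNX element of the Spp1 and Runx2 sequences above was found in 3 of 17 promoters of the osteoblast regulators and 2 of 17 of the bone matrix genes, and in 5.27% of all promoters. It was in 3.83% of promoters of lost shControl rises and in 3.9% of those of kept rises. The NFI motif TTGGCA, or its complement TGCCAA, was found in 31 of 287 promoters of lost shControl rises (10.8%) and in 170 of 1103 promoters of kept rises (15.4%). For falls the shares were 7.41% where lost and 12.5% where kept. The share was 14.1% over all promoters and 11.2% over the 12955 promoters of the genes measured in shNFIB. A match is a description of these letters and not a bound site.

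Igf1, insulin-like growth factor 1, was at 33.9 and 88.3 CPM in shControl, 28.9 and 1.15 in shNFIB and 30.8 and 1.06 in shMLL1, so that it was higher at day 7 in shControl and lower in both knockdown lines (log2 ratio −4.65 in shNFIB, interval −5.19 to −4.16). Of 11 genes of the IGF system, 1 was higher in shNFIB (Igfbp4, a binding protein, log2 ratio 2.46), 4 were lower and 6 in between (median −0.79, and −0.82 in shControl). Rspo2, which amplifies Wnt signals, was at 112 and 154 CPM in shNFIB against 170 and 486 in shControl. Of 9 Wnt inhibitors and targets, 0 were higher and 2 lower in shNFIB, Rspo3 and Ccn4, with a median of −0.59, against 1, 3 and −0.56 in shControl. Among all genes in shNFIB 14.2% were higher and 13.2% lower, so the counts of the Wnt list are no result about it.

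Several fat cell genes that had many counts at day 7 in shControl had few in shNFIB, while Cd36 had more. Cfd (adipsin) had 0 counts at day 0 in each line and 2129, 22 and 45 at day 7 in shControl, shNFIB and shMLL1. Lpl, lipoprotein lipase, had 6 and 1084 counts in shControl, 7 and 22 in shNFIB and 0 and 4 in shMLL1. Plin1, Cidec and Retn, all of the lipid droplet or secreted by adipocytes, had 472, 681 and 117 counts in shControl at day 7 and 9, 5 and 0 in shNFIB. By the rule of 2-fold, Cfd and Lpl count as kept, although their day 7 level in shNFIB was under 1 CPM against 69.8 and 35.6 in shControl.

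Of the 24 adipocyte genes 10 had under 20 counts on both shNFIB days. Of the other 14, 5 were higher, 3 lower and 6 in between in shNFIB, with a median of 0.28. In shControl 6 of the same 14 genes were higher and 2 lower, with a median of 0.35. The shares over all genes were 14.2% higher and 13.2% lower in shNFIB, and 20.1% and 14.7% in shControl. Among the 10 left out, Plin1, Cidec, Retn, Thrsp, Slc2a4, Aqp7 and Cox8b were 2-fold or more higher at day 7 in shControl. The medians do not include them. Cd36, a fatty acid transporter, had 8 and 349 counts in shNFIB (log2 ratio 5.52), 0 and 89 in shControl and 17 and 1 in shMLL1. Plin4, which coats lipid droplets, was at 116 and 324 CPM in shNFIB (1.48) and 123 and 652 in shControl. Pparg, the master regulator of fat, was at 52.2 and 84.2 CPM in shNFIB and 27.1 and 42 in shControl. Adipoq had 0 counts on both shNFIB days.

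Interferon response genes set the lines apart. Such genes are switched on by factors of the STAT and IRF families at the ISRE, the element shown above in Isg15 and Ifit1, and their products restrict viruses. Of 19 genes measured, 18 were 2-fold or more higher at day 7 in shNFIB and 0 lower, with a median of 4.06, beside 14.2% higher among all genes. In shControl 3 were higher and 2 lower (median 0.22), near the 20.1% and 14.7% of all genes. In shMLL1 0 were higher and 15 lower (median −1.90), where 19.4% of all genes were lower.

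Isg15, a ubiquitin-like modifier, was at 1.33 and 55.6 CPM in shNFIB, 38.1 and 32 in shControl and 492 and 40.6 in shMLL1. Ifit1, which binds foreign RNA, was at 16.5 and 330 CPM in shNFIB, 171 and 76.6 in shControl and 399 and 96 in shMLL1. Ifi44 was at 2.22 and 161 CPM in shNFIB, 18.6 and 29.3 in shControl and 295 and 47 in shMLL1. In all 3 genes the lines ran from lowest in shNFIB to highest in shMLL1 at day 0, and shNFIB was highest at day 7.

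The summed level of the list's members was 407 CPM at day 0 in shNFIB, 1002 in shControl and 3416 in shMLL1, and 2311, 930 and 958 at day 7. In shNFIB the list thus had the lowest sum of the 3 lines at day 0 and the highest at day 7. Among the higher members of the list were the STAT and IRF family genes Stat2 (log2 ratio 2.04), Irf9 (2.12) and Irf7 (4.40). The exception was Ifit2, at 97.1 and 69 CPM in shNFIB, which was lower at day 7 in each line and the 1 gene of the list that passed edgeR's quasi-likelihood test over the lines (adjusted p = 0.017 after Benjamini-Hochberg adjustment).

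The ISRE was found in 8 of 16 promoters of the list (50%) and in 3.44% of all promoters. Of the 12 leukocyte markers 2 were measured in shNFIB, Cd68 (1.2 and 3.99 CPM, higher at day 7) and Cd14 (21.6 and 12.9 CPM), and the list summed to 23.4 CPM at day 0 and 18.03 at day 7. Adgre1, Itgam and Tyrobp were at 0 in shNFIB and Ptprc had 3 and 0 counts. Genes of the Oas, Ifi and Ifit families have close relatives, and reads that match more than 1 of them may be missing from the counts.

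**Figure D5:**
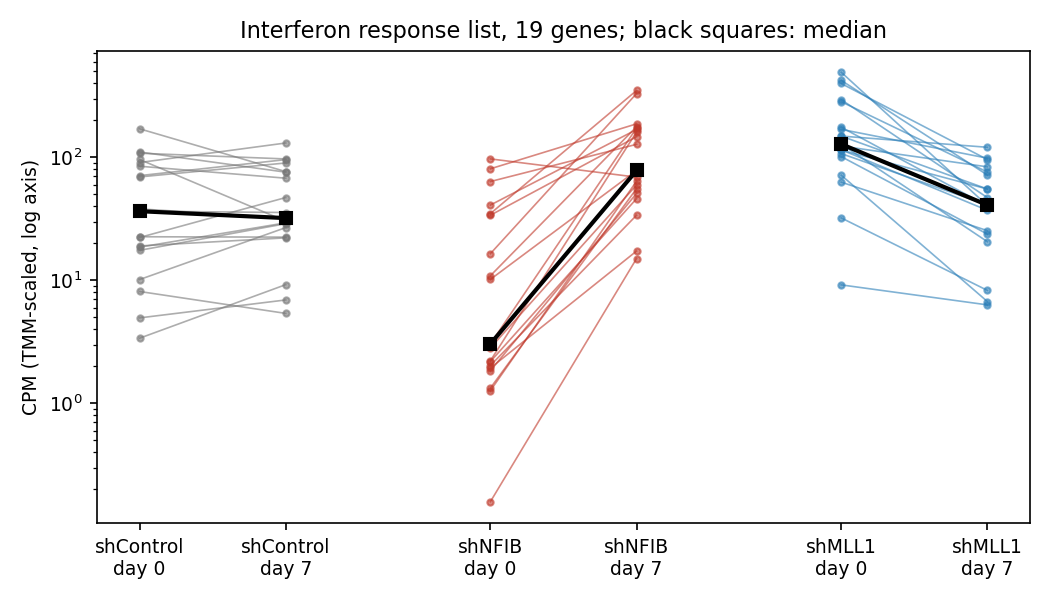
Level of the 19 interferon response genes in CPM (vertical log axis) at day 0 and day 7 of each line, 1 coloured line per gene, with black squares at the median. The median in shNFIB is the lowest at day 0 and the highest at day 7, and the median in shMLL1 is the highest at day 0.

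The genes of opposite direction contain the same group. Of 30 protein-coding genes past 2-fold in opposite directions in shControl and shNFIB, 10 were taken by the size of the smaller of their ratios. They included Ifi27l2a, an interferon-induced membrane protein (101 and 28.4 CPM in shControl, 4.97 and 75.9 in shNFIB), and the chemokine gene Cxcl10. Penk, which encodes proenkephalin, was at 12.7 and 1.44 CPM in shControl and at 2.12 and 22.8 in shNFIB, and it was also higher at day 7 in shMLL1 (3.05 and 68.1). Atf3, a stress-induced factor, was at 4.28 and 14.9 CPM in shNFIB against 10.1 and 2.33 in shControl. Shroom3, an organizer of apical actin, ran the other way, at 3.93 and 0.609 CPM in shNFIB and 0.783 and 4.69 in shControl.

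There were 127 protein-coding genes at least 2-fold higher in shNFIB whose shControl log2 ratio lay within 0.5 of 0. Each had 20 or more counts in at least 1 library of each of the lines shNFIB and shControl. The 10 largest were taken among genes with 100 or more counts in at least 1 shNFIB library. Of these, Isg15, Usp18 (log2 ratio 4.79), Zbp1 (4.40), Oas1a (4.06), Bst2 (4.03), Gbp3 (3.51), Irgm2 and Tgtp1 (3.18) are known interferon-induced genes. The 10 also held Hsd11b1 and Phf11d (3.72), which are not classed here. The corresponding falls numbered 108. At 100 or more counts in an shNFIB library they were led by Ncald, a neuronal calcium sensor with 121 and 2 counts (log2 ratio −5.74, interval −8.89 to −3.94), and Stard8, a RhoGAP (−3.11). Aif1l and Arhgef28 (−2.16 each) and then Nfib itself came next.

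Some genes crossed the floor of 3 counts. Mmp13, the collagenase of cartilage and bone, had 0 counts at day 0 and 457 at day 7 in shNFIB (log2 ratio at least 7.35), 5 and 13 in shControl and 132 and 15 in shMLL1. Gm10309 had 2 and 815 counts (log2 ratio 8.67, interval 6.91 to 11.81) and Map7d2, a microtubule-associated protein, 1 and 657 (9.28, 6.97 to 14.76), and both were higher in the other lines as well. Going down, Sprr2k, a cornified envelope protein, had 456 counts at day 0 and 0 at day 7, a log2 ratio at or below −7.15, and Ranbp3l went from 472 to 2 counts (−7.70, interval −10.84 to −5.93).

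Among the strongest kept rises with 100 or more counts in shControl were Orm1 (orosomucoid; 0 and 216 counts in shNFIB, log2 ratio at least 6.26), the sulfotransferase Sult1a1 (12 and 3518 counts, 8.28), Clca3a1 (5 and 1319 counts, 8.10) and the epoxide hydrolase Ephx2 (2 and 446 counts, 7.80, interval 6.04 to 10.95). The kept falls held, beside Col2a1 and Col8a1, the adhesion molecule L1cam (log2 ratio −6.28), Anxa8 (−4.45) and Serpinb1a (−4.20). Falls that shNFIB lacked included Ak4, an adenylate kinase (4.72 and 4.36 CPM, against 8.39 and 0.558 in shControl), and Angptl6 (3.04 and 2.6 CPM, against 7.42 and 0.558).

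Of the shControl rises with under 20 counts in shNFIB, Gas6, the ligand of the TAM receptor kinases, was the most abundant. It had 813 and 22101 counts in shControl, 2 and 9 in shNFIB and 359 and 17486 in shMLL1. Its day 7 level was 0.304 CPM in shNFIB and 725 in shControl. Hpca (712 counts at day 7 in shControl and 18 in shNFIB), Adamts15 (633 and 7) and Mdfi (393 and 3) were further examples. In Hpca, Adamts15, Mdfi and Gas6 the shMLL1 library had more counts at day 7 than that of shNFIB, though Mdfi had only 32. Smpdl3a had 306 counts at day 7 in shMLL1 and 412 in shControl. Others named by the same rule were low in shMLL1 at day 7 too. They were Ndrg2 (11 counts, against 440 in shControl), 1500009L16Rik (1 and 423), Ccrl2 (23 and 402), Plin1 (28 and 472) and Cidec (17 and 681).

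Collagen genes were mostly between the 2-fold limits in shNFIB. Of 28 genes of collagen and its ascorbate-dependent processing, 1 was higher (Loxl3), 7 lower and 20 in between, with a median of −0.66 against −0.73 in shControl. For this list and the proteoglycans below, the shares over all genes in shNFIB were 14.2% higher and 13.2% lower. Col3a1, a fibrillar collagen, was at 4431 and 1097 CPM (log2 ratio −2.01). P4ha1, a prolyl hydroxylase, was at 136 and 112 CPM in shNFIB against 163 and 63.6 in shControl. Of 8 small leucine-rich proteoglycans, 3 were higher and 1 lower (median 0.14 in each of shNFIB and shControl and 2.78 in shMLL1). Lum (lumican) had 7 and 516 counts in shNFIB.

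Mesenchymal identity genes were lower or level. Of 14, 1 was higher (Pdgfra, log2 ratio 1.25), 6 lower and 7 in between (median −0.74), against 0 higher and 10 lower in shControl (median −1.20). The share of all genes that were lower was 13.2% in shNFIB and 14.7% in shControl, and 14.2% and 20.1% were higher. Ly6a, the stem cell antigen Sca-1, was at 1244 and 1281 CPM in shNFIB, 974 and 304 in shControl and 1522 and 326 in shMLL1, and so stayed level in shNFIB and was lower at day 7 in the other lines. Fn1, fibronectin, went from 6823 to 2786 CPM in shNFIB and from 5684 to 747 in shControl.

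Of 15 genes of the complement and innate list, 6 were higher and 2 lower in shNFIB, beside 14.2% and 13.2% of all genes. The median was 0.92, and 0.94 in shControl. C3, the central complement component, was at 306 and 2281 CPM in shNFIB. Of 8 retinoid genes, 4 were higher and 2 lower (median 0.97), and Dhrs3, a retinal reductase, rose from 12.5 to 356 CPM in shNFIB and from 18.7 to 209 in shControl. Aldh1a1 and Aldh1a7 are close copies, and reads that match both may be missing from their counts.

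Among markers of other cell types, smooth muscle genes were plentiful, with a summed level of 3344 CPM at day 0 and 1352 at day 7 in shNFIB, of which Acta2 made 1491 and 130. Of the 12 measured, 3 were higher and 4 lower (median −0.73, and −0.65 in shControl), beside 14.2% and 13.2% of all genes in shNFIB. Of 15 chondrocyte genes 6 were measured, 2 of them higher, 2 lower and 2 in between (median −0.21), and Acan had 0 counts in every library. Skeletal muscle, leukocyte, endothelial and epithelial lists had 2 measured genes each, out of 15, 12, 10 and 12. Those were Acta1 (lower) and Ttn (higher), Cd68 (higher) and Cd14, Tek (lower) and Vwf, and Cdh1 and Cdsn (both lower). The summed level of the epithelial list was 166 CPM at day 0 and 25.4 at day 7 in shNFIB and 335 and 11.45 in shControl, most of it Cdsn.

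Over the 3 lines, the test of day called members of most of these lists. Over all genes tested it called 17.7% higher and 17% lower. It called 2 of 15 osteoblast regulators higher and 1 lower, which is no more than that share, and 5 of 15 bone matrix genes higher and 3 lower. Of 13 adipocyte genes 5 were called higher and 3 lower, and of 14 genes of the complement and innate list 5 and 3. Of the 28 genes of the collagen list 2 were called higher and 10 lower, of 19 genes of glycolysis and hypoxia 2 and 7, and of 14 mesenchymal identity genes 1 and 7. The ATF4 list had 13 of 18 genes called lower, the IGF system 5 of 11 and the Wnt list 3 of 9. The shNFIB libraries enter each of these calls, so they are not independent of the ratios given above.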

How the data were processed

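RNA was sequenced from C3H10T1/2 lines carrying a control, Nfib or Kmt2a hairpin, at day 0 and day 7, 1 library each. The authors deposited raw counts per gene, unnormalized. The submitters' processing notes name Trimmomatic 0.39, HISAT2 2.2.1, SAMtools 1.12, HTSeq 0.11.1 and the build GRCm38/mm10. The paper states that reads were selected by mapping quality and PCR duplicates removed before counting. The strand setting of the counting is not given in the sources used here, so antisense and overlapping genes are uncertain.

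Groups were taken from the labels. TMM factors over the 6 columns (edgeR 4.0.16 in R 4.3.3) scaled the counts to CPM, and log2 ratios used a prior count of 0.125. Genes with 20 or more counts in at least 1 column of a line were kept, and with 1 library per condition a 2-fold ratio replaced a test. Counting intervals were exact binomial (95%, scipy 1.17.1), and ratios against 0 counts used a floor of 3 counts per library. Depth was 21608680 to 34774066 counts. edgeR's quasi-likelihood test of day over the 3 lines, with line as the blocking term, gave p values adjusted by Benjamini-Hochberg. The block follows from each line being its own cell line, and deviations of libraries of the same line from their day means correlated at 0.444, 0.422 and 0.264 over 15741 genes. The scripts were tested on simulated data. Gene names and positions were from GENCODE M21, which matched 55141 of 55401 IDs, and promoters from RefSeq.

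The genes named were Nfib and Kmt2a, members of 25 lists and, among protein-coding genes, the 10 highest and lowest ratios with 20 counts on both shNFIB days, the 10 shControl rises and falls with 100 counts that shNFIB kept most or fell short of most, the 10 of opposite direction, the 10 highest and lowest with a shControl log2 ratio within 0.5, 5 each at 3 counts or under on 1 day, and 10 shControl rises under 20 counts. Not all are described, and a few are not reported here. The members and lists were chosen with earlier results of these data known. Other scalings, count minimums, fold limits, exact tests at an assumed biological coefficient of variation (BCV), thinning to the smallest library, DESeq2 1.42.0 and fits without a line or without the block were tried.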

Additional observations from a re-analysis of the deposited data

Results flagged for a closer look

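In 38 genes, 30 of them protein-coding, the shNFIB and shControl libraries differed between the days in opposite directions, by 2-fold or more each way. The 10 protein-coding genes whose smaller ratio was largest are given here. With 1 library per condition the difference between the lines was not tested. In shNFIB the log2 ratio of day 7 over day 0 was 3.421 for Penk, 3.931 for Ifi27l2a, 1.799 for Atf3, 2.321 for Cxcl10, 1.782 for Ankrd37 and 1.555 for Hdc, all of them lower at day 7 in shControl. It was −2.681 for Shroom3, −4.742 for Nanp, −1.700 for Celf5 and −1.528 for Ccdc85a, all of them higher at day 7 in shControl. Nanp rests on 32 and 1 counts in shNFIB (interval −10.25 to −2.32). The shMLL1 ratio had the sign of the shNFIB ratio for Penk (4.48) and Shroom3 (−1.30) and that of the shControl ratio for the other 8 genes.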

How the results depend on the processing

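Counts are given for genes higher and lower in shNFIB, then for shControl rises kept and lost and falls kept and lost (2067, 1922, 1499, 362, 1274 and 247 as reported). With at least 1 count they were 5966, 5100, 3517, 1147, 2238 and 563. At 1.5-fold they were 3263, 3497, 2465, 971, 2535 and 1192, at 3-fold 1151, 1054, 752, 116, 649 and 40, and in an exact test at an assumed BCV of 0.4 292, 341, 133, 2, 106 and 6. Of the higher, rises kept and rises lost, a minimum of 100 counts left 1119, 771 and 162, and protein-coding genes alone 1377, 967 and 217. With falls lost added, an interval wholly past 2-fold left 1251, 820, 163 and 118, and an exact test at BCV 0.2 left 1312, 901, 195 and 120. Lost defined as under 0 gave 106 rises and 64 falls, and as any response short of 2-fold 921 and 783. Over all settings tried, shNFIB kept 47.6% to 67.5% of classed rises against 67.6% to 82.4% for shMLL1. Of classed falls it kept 57.9% to 70.7% against 59.9% to 76.7%.

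Scaling by library size alone moved the median over all members by 0.098 and list medians to 2.874 (glucocorticoid), 1.020 (complement), 0.236 (proteoglycans), −1.177 (NFI), −0.643 (mesenchymal) and −0.114 (chondrocyte). Thinning moved glycolysis and hypoxia to 0.487. Of 402 named log2 ratios, 0 reversed under another scaling, prior or thinning, while 14 crossed 2-fold under library size alone and 7 under thinning. The largest move was 3.998 under a prior count of 2, among genes with 0 counts on a day, and 1.524 under thinning. That prior also moved the skeletal muscle median from −3.306 to −1.457.

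The day effect over the lines called 1213 to 2599 genes higher and 1197 to 2542 lower when 1 line was left out, the fewest without shControl (1213 and 1197). Without the line as a replicate block it called 2149 and 1850, with DESeq2 3023 and 3224, and with no filter 3214 and 3056. The cause of these differences was not tested. At 1 library per condition, depth limits counting error only.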

Other observations

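Raw counts at day 0 were compared over the 3 lines after the values were seen. Of 7942 genes with 500 or more counts in each day 0 library, 414 (5.21%) had counts within 1.1-fold of each other. Among osteoblast regulators of that depth the number was 4 of 8 (Runx1, Runx2, Cbfb and Twist1), and among bone matrix genes 3 of 11 (Spp1, Col1a1 and Postn). It was 3 of 25 for the collagen list, 2 of 28 for S phase, 1 of 13 for cell cycle exit, 1 of 7 for interferon, 1 of 6 each for the adipocyte and Wnt lists and 1 of 1 for leukocyte markers. It was 0 in the other lists with genes of that depth, among them 0 of 30 for G2/M and 0 of 18 for sterol synthesis. Runx2 had 1047, 993 and 972 counts in shControl, shNFIB and shMLL1, and Spp1 had 6930, 6843 and 6771, in libraries of 30838517 to 34774066 counts. These shares were not tested.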
